A study of Mus musculus with 4 samples.

Results

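The large-subunit cytosolic ribosomal protein genes of the mouse were examined for binding of HA-tagged human WDR5 (HA-hWDR5). They were taken from the RefSeq annotation of GRCm38.p6, the assembly that mm10 stands for, as every protein-coding gene whose symbol is Rpl followed by a digit, or Rplp0, Rplp1 or Rplp2. This gave 56 of the 21887 protein-coding genes on the chromosomes analysed. A gene was given a peak when the summit of a peak lay inside it or within 1 kb of either end.

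The Rx:GFP knock-in line of mouse embryonic stem cells was differentiated to embryoid bodies by the SFEBq method. The series places the samples at day 6. Culture conditions were the same for every library, with the serum replacement KSR at 5% and Matrigel at 2% from day 1. Fixation was also shared and combined the crosslinker DSG (2 uM, 30 min) with PFA (1%, 10 min). Whether the peaks depend on this double fixation was not tested. The genotype was Wdr5 KO in every library, and HA-hWDR5 was induced with doxycycline at T12h or at T48h. The labels name neither the event these hours are counted from nor the number of clones. Each rescue time had 1 anti-HA ChIP library and 1 input library, so nothing below has a replicate check and no test of one time against the other was possible. MACS kept 55539917 ChIP tags at T12h and 67116740 at T48h after removing duplicates, and it called 1197 and 660 peaks. Its estimate of the distance between the forward and reverse tag clusters was 56 bp and 57 bp. Peak lists do not measure expression, so the cell type could not be checked against its markers.

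The large, or 60S, subunit of the ribosome forms peptide bonds and carries the tunnel through which the new protein leaves. Its proteins are made from short, highly transcribed housekeeping genes, many of whose transcripts start in a tract of pyrimidines (the 5′ TOP motif) that couples their translation to nutrient signalling. WDR5 is a WD-repeat protein that scaffolds histone H3 lysine 4 methyltransferases of the MLL/SET1 family and is known to occupy a subset of ribosomal protein genes in several cell types.

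HA-hWDR5 peaks lay at 34 of the 56 genes at T12h (60.7%, exact binomial interval 46.8 to 73.5) and at 33 at T48h (58.9%, 45.0 to 71.9). Of all protein-coding genes, 4.25% had such a peak at T12h and 1.69% at T48h. The 33 genes of T48h were all among those of T12h, and Rpl19 was the only gene of the group with a peak at 1 time alone. A peak at both times was found for 1.08% of all protein-coding genes, and one at T12h alone for 3.17%. Of the other protein-coding genes with a T12h peak, 203 of 896 (22.7%) also had one at T48h. Most of those 896 had weak T12h peaks. Among other genes with a T12h MACS fold (defined below) of 20 or more, 61 of 62 also had a T48h peak. The same held for 31 of 31 large-subunit genes at that fold, so keeping the peak was shared with other strong peaks.

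The genes with a peak at both times were Rpl3, Rpl5, Rpl6, Rpl7, Rpl7a, Rpl7l1, Rpl8, Rpl9, Rpl10a, Rpl11, Rpl12, Rpl13, Rpl15, Rpl17, Rpl18, Rpl23, Rpl24, Rpl26, Rpl27, Rpl28, Rpl29, Rpl31, Rpl32, Rpl34, Rpl35, Rpl35a, Rpl36, Rpl36a, Rpl37, Rpl37a, Rpl38, Rpl39 and Rpl41. They lay on 17 chromosomes. Genes without a peak at either time included Rpl4, Rpl10, Rpl13a, Rpl14, Rpl21, Rpl22, Rpl23a, Rpl27a, Rpl30, Rplp0, Rplp1 and Rplp2. None was found at the paralogs Rpl3l, Rpl10l, Rpl22l1, Rpl36al and Rpl39l either, nor at Rpl31-ps12, Rpl32l, Rpl34-ps1 and Rpl37rt, 4 loci whose names or short spans resemble retrogenes but which the annotation gives as protein-coding. Without the 6 paralogs and those 4 loci, 33 of 46 genes had a peak at T12h (71.7%) and 32 at T48h (69.6%). Widening the distance from the gene to 5 kb gave no further gene, so the 22 genes without a peak had none within that distance.

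**Figure D1:**
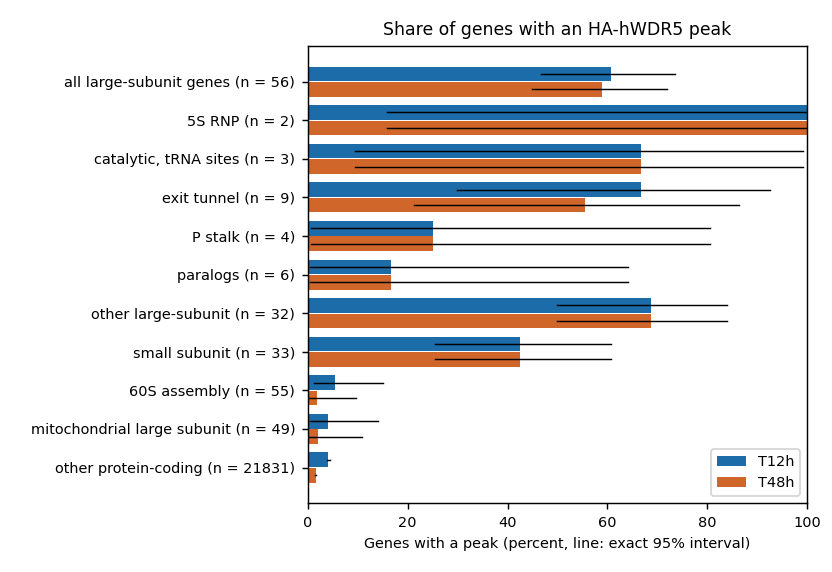
Percent of genes with an HA-hWDR5 peak at T12h (blue) and T48h (orange) for the large-subunit genes, their role groups and comparison lists, with the number of genes on the left; black lines are exact binomial 95% intervals, which cover counting error only. Large-subunit genes sit at 60.7% and 58.9%, the other protein-coding genes at 4.10% and 1.54%.

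The peaks were strong where they occurred. The fold, the authors' MACS ratio of tags over local background, ranged from 6.34 to 48.5 over the 34 genes at T12h with a median of 30.0, and from 8.74 to 30.7 over the 33 genes at T48h with a median of 19.5. All protein-coding genes with a peak had medians of 7.66 and 7.70. A fold of 20 or more was reached by 31 of the large-subunit genes at T12h and 13 at T48h, against 0.425% and 0.192% of all protein-coding genes. Rpl28, Rpl3 and Rpl19 were the 3 genes with a T12h fold under 20, while most of the 33 genes with a T48h peak were under it at that time.

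Peaks at these genes were frequent at the upper end of both lists. Large-subunit genes accounted for 33 peaks of the top 100 by score at T12h and 33 at T48h, and for 20 and 22 of the top 50. The score is the authors' −10 times the log10 of the MACS p-value. The median rank of a gene's best peak was 45 of 1197 at T12h and 40 of 660 at T48h. The 14 small-subunit ribosomal protein genes with a peak had similar median ranks, 40.5 at T12h and 30.0 at T48h. The 35 peaks at these genes were 2.92% of the T12h list but held 10.7% of the tags in all T12h peaks (10828 of 101011). At T48h the 34 peaks were 5.15% of the list and held 14.6% of its tags (8371 of 57314).

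**Figure D2:**
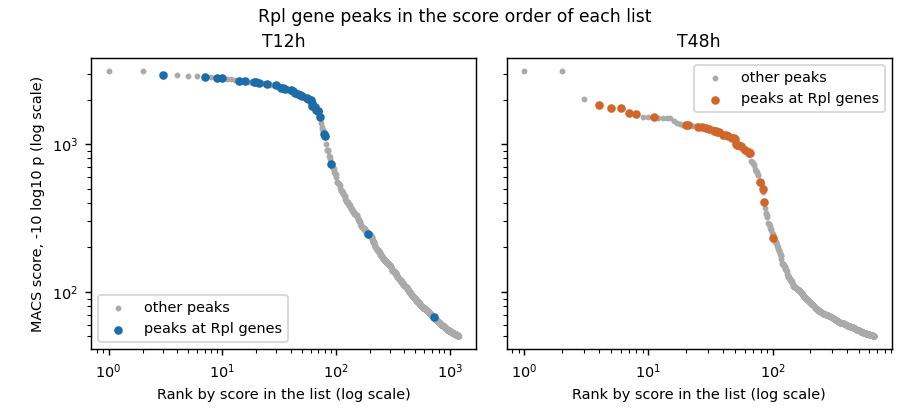
MACS score against rank in the T12h list (left) and the T48h list (right), both axes logarithmic, with peaks at large-subunit genes coloured and other peaks grey. The coloured peaks cluster on the upper plateau of each curve, with 33 in the first 100 ranks of each list, and Rpl19 stands alone near rank 730 at T12h.

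The 5S RNP is the particle of 5S ribosomal RNA with Rpl5 and Rpl11, which also binds and inhibits the p53 ubiquitin ligase Mdm2 when ribosome assembly is disturbed. Both of its genes had strong peaks. At Rpl5 (chr5:107900508-107909005) the peak spanned chr5:107900350-107901259 at T12h, with 372 tags (exact Poisson interval 335 to 412), a score of 2815, a fold of 42.0 and a deposited false discovery rate of 11.1%. At T48h it spanned chr5:107900315-107901433 with 290 tags (258 to 325), a score of 879, a fold of 14.1 and a rate of 1.56%. The ratio of its folds, 2.98, was the highest of the group. Rpl11 had 296 tags and a fold of 27.1 at T12h, and 257 tags and 21.2 at T48h. Rpl23 and Rpl26, whose proteins have also been described as Mdm2 binders, had strong peaks too. All 4 genes on the list of Mdm2 binders thus had a peak at both times (exact binomial interval 39.8% to 100%). Although 4 of 4 is the highest count possible, that interval still holds the 58.9% found over all large-subunit genes. With 4 genes the count therefore cannot tell whether they differ from the group.

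The P stalk is the flexible arm that recruits translation factors to the large subunit. Its base protein gene Rpl12 had a peak with 318 tags and a fold of 28.6 at T12h and 228 tags and 19.5 at T48h. Rplp0, Rplp1 and Rplp2, which encode the arm itself, had no peak at either time. The Rpl12 summit lay 164 bp inside the gene at both times, and the gene Lrsam1 lay within 1 kb of it.

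Of the 3 genes listed for proteins at the catalytic centre or contacting tRNA, Rpl8 and Rpl3 had peaks and Rpl10 had none. Rpl8 held 338 tags with a fold of 26.6 at T12h and 249 tags with 21.5 at T48h. Rpl3, whose protein reaches towards the peptidyl transferase centre, had the weakest peak of those found at both times. It spanned chr15:80082920-80083427 at T12h with 80 tags (63.4 to 99.6), a score of 244, a fold of 8.93 and a false discovery rate of 3.11%. At T48h it spanned chr15:80082901-80083479 with 81 tags (64.3 to 101), a score of 231, a fold of 8.74 and a rate of 2.97%. The Rpl3 peak therefore had nearly the same tags and fold at both times, while the ratio of the T12h fold to the T48h fold had a median of 1.52 over the genes with both peaks.

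Among 9 genes for proteins that line the exit tunnel or its rim, Rpl17, Rpl26, Rpl31, Rpl35 and Rpl39 had a peak at both times, Rpl19 at T12h alone, and Rpl4, Rpl22 and Rpl23a at neither. Rpl26 had the highest score of the group at T12h. Its peak spanned chr11:68901393-68902325 with 400 tags (362 to 441), a score of 2948, rank 3 in the list, a fold of 33.9 and a false discovery rate of 33.3%. At T48h the Rpl26 peak spanned chr11:68901133-68902330 with 356 tags (320 to 395), a score of 1759, a fold of 22.3 and a rate of 20%. The deposited rate comes from calls with ChIP and control exchanged, and among these genes the highest rates belonged to peaks with the highest scores, so a high rate here does not mark a weak peak.

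Rpl17 had the highest T12h fold, 48.5. Its peak spanned chr18:75000166-75001170 with 341 tags (306 to 379), a score of 2639 and a false discovery rate of 5.26%, and at T48h chr18:75000269-75001005 with 222 tags (194 to 253), a score of 1225, a fold of 19.7 and a rate of 2.94%. The summit lay 1642 bp from the nearer end of the annotated gene at T12h. Rpl31 held 302 tags with a fold of 38.5 at T12h and 230 tags with 19.8 at T48h, and Rpl35 held 328 tags with 30.7 and 279 with 22.6.

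Rpl19 and Rpl39 were at the low end. The Rpl19 peak spanned chr11:98026918-98027167, 250 bp, with 26 tags (17.0 to 38.1), a score of 67.1, rank 730, a fold of 6.34 and a false discovery rate of 3.29%. It was the weakest peak of the group, and no T48h peak was called there. Rpl23, which lies on the same chromosome (chr11:97777526-97782439) with its end under 1 Mb from the start of Rpl19, ranked 57 at T12h and 4 at T48h. Rpl39 held 178 tags (153 to 206) at chrX:37084585-37085346 at T12h, with a score of 1165, a fold of 24.99 and a rate of 2.53%. At T48h it held 163 tags (139 to 190) at chrX:37084671-37085384, with a score of 874, a fold of 18.6 and a rate of 1.54%.

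Tags at the X-linked genes were few for peaks of their fold. Rpl36a held 230 tags at T12h and 109 at T48h, with folds of 28.6 and 16.3. These and the Rpl39 counts lay below those of every autosomal large-subunit gene with a peak except Rpl19 and Rpl3 at T12h and Rpl28 and Rpl3 at T48h. The autosomal medians were 337 tags and 257 tags. The third X-linked gene, Rpl10, had no peak. At the other end Rpl13, on chromosome 8, held the most tags at T12h, 477, yet its fold of 24.4 was in the lowest part of the group. What sets the tag count at these loci was not tested.

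The remaining 32 genes had a peak in 22 cases, the same 22 at each time, with median folds of 30.0 and 18.9. Rpl29, a heparin-binding protein gene, had a peak at chr9:106428978-106430233 with 401 tags (363 to 442), a score of 2851, a fold of 36.4 and a false discovery rate of 14.3% at T12h. At T48h the Rpl29 peak spanned chr9:106428912-106430214 with 329 tags (294 to 367), a score of 1757, a fold of 23.2 and a rate of 16.7%. Rpl35a, a gene mutated in Diamond-Blackfan anaemia in humans, held 349 tags (313 to 388) at chr16:33056266-33057207 at T12h, with a score of 2812, a fold of 44.6 and a rate of 10.0%. Its T48h peak at chr16:33056135-33057138 held 263 tags (232 to 297), with a score of 1340, a fold of 24.7 and a rate of 4.76%. Both genes were thus among the strongest of the list at each time.

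Rpl32 held 372 tags (335 to 412) at chr6:115808076-115809008 at T12h, with a score of 2691, a fold of 35.1 and a false discovery rate of 7.14%. At T48h it held 231 tags (202 to 263) at chr6:115808212-115808961, with a score of 1304, a fold of 23.8 and a rate of 3.70%, and the summits of both times were 1 bp apart. Rpl37 held 349 tags (313 to 388) at chr15:5116381-5117374 at T12h, with a score of 2668, a fold of 39.2 and a rate of 6.25%. Its T48h peak at chr15:5116478-5117356 held 228 tags (199 to 259.6), with a score of 994, a fold of 16.5 and a rate of 1.96%. The ratio of the T12h fold to the T48h fold was 2.38 at Rpl37 and 1.47 at Rpl32.

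Rpl41 encodes the shortest of the ribosomal proteins, and its gene spans 1059 bp. It held 344 tags (309 to 382) at chr10:128548389-128549277 at T12h, with a score of 2619, a fold of 36.1 and a false discovery rate of 5.00%. At T48h its peak of 1165 bp at chr10:128548155-128549319 was longer than the gene and held 332 tags (297 to 370), with a score of 1612, a fold of 24.5 and a rate of 14.3%. By the highest-scoring peak, Rpl18 was the other gene besides Rpl17 with summits farther than 1 kb from both annotated ends at both times. Its peak, however, lay at the start that the RefSeq promoter table gives. The Rpl18 peak spanned chr7:45717861-45718793 with 316 tags (282 to 353), a score of 2282, a fold of 38.7 and a rate of 2.38% at T12h, and chr7:45717897-45718829 with 288 tags (256 to 323), a score of 1274, a fold of 19.5 and a rate of 3.23% at T48h.

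Rpl28 had the weakest peak among these 22. It spanned chr7:4792206-4793581 at T12h with 244 tags (214 to 277), a score of 1130, a fold of 15.7 and a false discovery rate of 2.50%. At T48h it spanned chr7:4792402-4793398 with 139 tags (117 to 164), a score of 404, a fold of 10.9 and a rate of 2.35%. The developmentally studied genes Rpl24, mutated in the Belly spot and tail mouse, and Rpl38, mutated in the Tail short mouse, both had peaks. Rpl24 had folds of 26.3 and 14.5, and Rpl38 folds of 28.4 and 23.9, at T12h and T48h. Rpl36 was the only gene with 2 peaks at each time. The second held 150 tags with a fold of 19.0 at T12h and 127 tags with 14.4 at T48h. Its summits lay 1956 bp and 1827 bp from the nearer end of the gene.

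The others had T12h folds between 24.4 and 41.7. From the lowest, these were Rpl7 (24.4, and 17.5 at T48h), Rpl13 (24.4 and 19.9), Rpl7a (24.8 and 20.1), Rpl23 (26.0 and 30.7), Rpl15 (27.4 and 18.8) and Rpl36 (28.9 and 19.0). Above them were Rpl34 (29.5 and 18.6), Rpl27 (30.5 and 17.1), Rpl6 (30.7 and 16.6), Rpl9 (35.0 and 26.9), Rpl10a (39.2 and 15.95) and Rpl37a (41.7 and 16.9). The order at T12h was not that of T48h, where Rpl23 and Rpl9 had the 2 highest folds and Rpl10a and Rpl37a lay below the median.

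Of the 6 paralogs, Rpl7l1 alone had peaks. Its peak spanned chr17:46782059-46782973 with 303 tags (270 to 339), a score of 2101, a fold of 33.3 and a false discovery rate of 2.00% at T12h. At T48h it spanned chr17:46782071-46782881 with 238 tags (209 to 270), a score of 1146, a fold of 20.6 and a rate of 2.38%. The parent genes of the other 5 differed. Rpl3, Rpl36a and Rpl39 had peaks while Rpl3l, Rpl36al and Rpl39l had none, and Rpl10 and Rpl22 lacked peaks like Rpl10l and Rpl22l1. Rpl3l is known as a striated-muscle form, and Rpl10l and Rpl39l as forms enriched in testis.

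**Figure D3:**
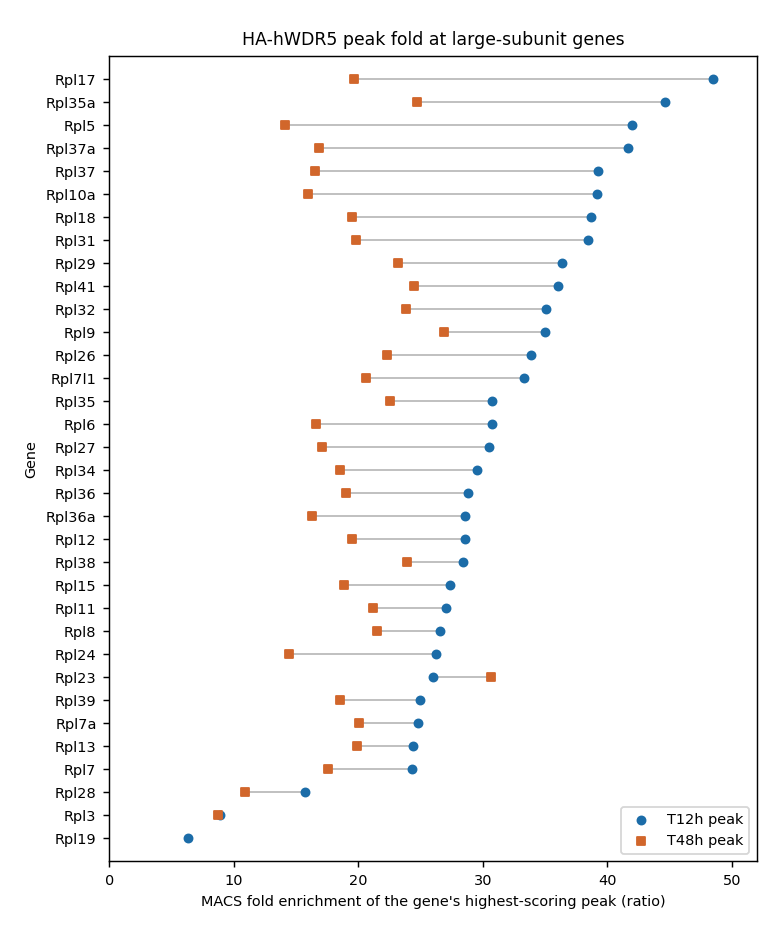
MACS fold of each gene's highest-scoring peak at T12h (blue circles) and T48h (orange squares), with a grey line joining the times of 1 gene; genes are ordered by the T12h fold, and genes without a peak are not drawn. The T12h value lies to the right for 32 of 33 genes, Rpl23 being the exception, and Rpl19 has a T12h value alone.

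In 32 of the 33 genes with both peaks the T12h fold was the higher one, and at Rpl23, a protein of the subunit interface, it was higher at T48h (30.7 against 26.0). The tag count was also higher at T12h in 32 of 33, the exception being Rpl3 by 1 tag, although the T48h library had more filtered tags. The ratio of the folds had a median of 1.52 and ran from 0.849 to 2.98. The same ratio had a median of 1.52 over the 203 other protein-coding genes with peaks at both times, of which 174 (85.7%) had the higher T12h fold. The medians of this ratio were thus equal in the large-subunit genes and the rest, although the rest held many weaker peaks. Over the 61 other genes with a T12h fold of 20 or more, the median was 1.62. Of the 33 large-subunit genes, 31 reached that fold. With 1 library at each time, rescue time, depth and library cannot be told apart.

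Gene by gene, tag counts were more alike between the times than folds. Over the 33 genes the log2 tag counts had a Pearson r of 0.870 and a Spearman rho of 0.708, and the log2 folds 0.550 and 0.143. Without Rpl3, the weakest of them, these became 0.791 and 0.679 for tags and 0.262 and 0.0599 for folds. The values describe genes within 1 pair of libraries, share the libraries' depth and controls, and are not independent replicates.

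The peaks of both times marked the same places. All 33 pairs overlapped, with a median of 93.3% of the T12h peak and 95.7% of the T48h peak inside the overlap. Summits were a median of 38 bp apart, and 31 of 33 pairs lay within 200 bp. The exceptions were Rpl28 (489 bp) and Rpl24 (262 bp). Median widths were 938 bp and 934 bp, against 359 bp and 297 bp for all peaks of each list. Peaks at small-subunit ribosomal protein genes had median widths of 936 bp at T12h and 892 bp at T48h, so the width was not particular to large-subunit genes.

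A start site with its strand was given in the RefSeq promoter table (GRCm38.p6) for 43 of the 56 genes, among them 26 of the 33 with peaks at both times and Rpl19. Rpl3, Rpl7, Rpl8, Rpl17, Rpl29, Rpl32 and Rpl36 were not in it. Where a gene had several starts, the one nearest the summit was used. The start lay inside the peak for 27 of 27 genes at T12h and for 26 of 26 at T48h. Summits were downstream of it for 26 of 27 genes and for 26 of 26, at medians of 200 bp and 198 bp. The T12h summit of Rpl28 was the exception, 289 bp upstream, while its T48h summit lay 200 bp downstream.

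Summits of other peaks within 1 kb of a start were downstream for 62.3% of 523 peaks at T12h and for 61.7% of 162 peaks at T48h, at medians of 72 bp and 80.5 bp. Among those with a fold of 20 or more, 33 of 38 and 13 of 17 were downstream, at medians of 180.5 bp and 207 bp. The position beyond the start was therefore shared with other strong peaks.

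**Figure D4:**
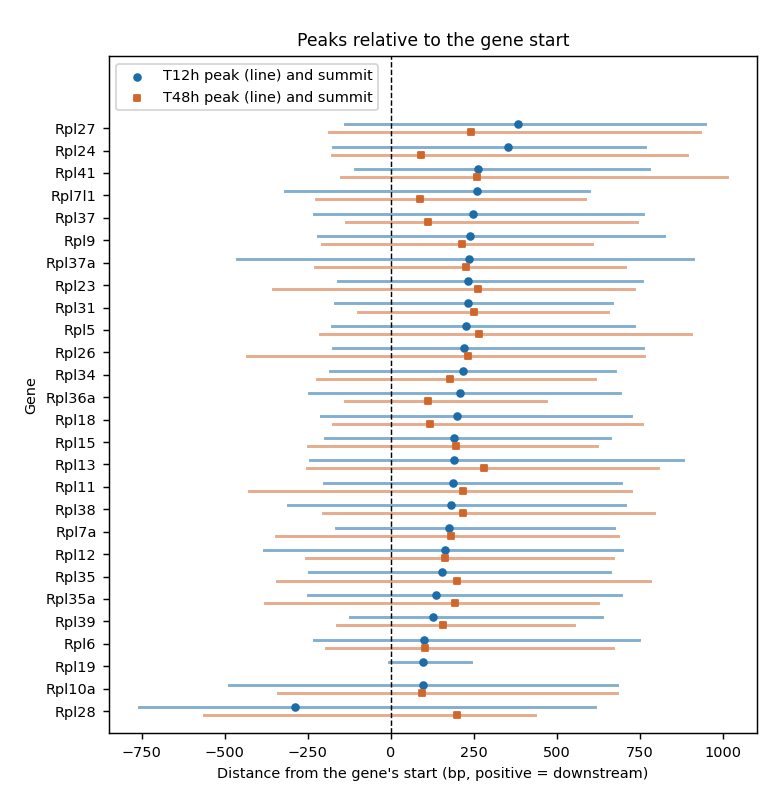
Extent (line) and summit (symbol) of the T12h peak (blue, circle) and T48h peak (orange, square) of each large-subunit gene with a start in the promoter table, as distance in bp from that start, positive in the direction of transcription. Every line crosses the dashed start, and every summit but that of Rpl28 at T12h lies to the right of it.

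The promoters of the 4 genes with the highest T12h scores in the table, and of 4 genes of the P stalk, catalytic and tunnel groups without a peak, are printed from 85 bases before to 15 bases after the RefSeq start to show what the starts of bound and unbound genes look like. Capitals mark the longest run of C or T within 5 bases of the start. Those with a peak are Rpl26 (chr11:68901481-68901580, plus strand), Rpl5 (chr5:107900443-107900542, plus), Rpl35a (chr16:33056368-33056467, plus) and Rpl37 (chr15:5116528-5116627, plus). Those without are Rplp0 (chr5:115559382-115559481, plus), Rplp2 (chr7:141447566-141447665, plus), Rpl10 (chrX:74270731-74270830, plus) and Rpl4 (chr9:64173302-64173401, plus).
Rpl26: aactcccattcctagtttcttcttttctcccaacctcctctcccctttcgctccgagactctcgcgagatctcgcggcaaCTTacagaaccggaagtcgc
Rpl5: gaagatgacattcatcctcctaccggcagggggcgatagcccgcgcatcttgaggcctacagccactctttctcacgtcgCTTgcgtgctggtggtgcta
Rpl35a: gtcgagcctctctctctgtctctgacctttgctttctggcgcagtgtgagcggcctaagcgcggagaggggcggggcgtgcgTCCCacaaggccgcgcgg
Rpl37: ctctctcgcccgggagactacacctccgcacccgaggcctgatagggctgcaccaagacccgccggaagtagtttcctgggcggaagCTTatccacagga
Rplp0: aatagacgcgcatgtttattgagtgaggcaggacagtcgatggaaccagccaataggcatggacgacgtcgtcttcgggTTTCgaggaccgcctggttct
Rplp2: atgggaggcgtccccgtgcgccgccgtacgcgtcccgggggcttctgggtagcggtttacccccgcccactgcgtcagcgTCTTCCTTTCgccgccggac
Rpl10: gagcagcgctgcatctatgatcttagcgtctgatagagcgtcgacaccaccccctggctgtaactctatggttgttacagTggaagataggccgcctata
Rpl4: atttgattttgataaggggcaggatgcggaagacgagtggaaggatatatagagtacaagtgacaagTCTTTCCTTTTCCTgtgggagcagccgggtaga
Uninterrupted pyrimidines near the start were not tied to the presence of a peak in these 8. The run was 3 or 4 bases in the 4 genes with a peak, and 4, 10, 1 and 14 bases in Rplp0, Rplp2, Rpl10 and Rpl4. The RefSeq start need not be the start used in these cells.

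Longer tracts were found in both sets, and 2 of the longest of each, chosen for their length, are shown from 15 bases before to 20 bases after the start with the run in capitals. Rpl7a (chr2:26910792-26910826, plus strand) and Rpl35 (chr2:39005112-39005146, minus strand) had peaks at both times. Rpl27a (chr7:109519180-109519214, plus) and Rpl13a (chr7:45128726-45128760, minus) had none, and the 14-base run of Rpl13a was equalled by those of Rpl4 and Rpl14.
Rpl7a: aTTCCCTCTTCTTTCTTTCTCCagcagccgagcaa
Rpl35: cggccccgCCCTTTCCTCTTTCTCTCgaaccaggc
Rpl27a: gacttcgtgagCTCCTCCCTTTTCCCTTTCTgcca
Rpl13a: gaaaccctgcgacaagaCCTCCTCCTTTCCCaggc
Runs of 6 or more bases reaching within 5 bases of the start occurred in 11 of 26 genes with peaks at both times (42.3%). They occurred in 8 of 16 without (50%), against 20.8% of 17492 protein-coding promoters. Of the 8 without a peak that are neither paralogs nor retrogene-like, 5 had such a run. Pyrimidine runs near the start were thus seen at genes with and without a peak. This count does not identify 5′ TOP starts, because a run did not have to hold the first transcribed base. The run of Rpl4 ended 5 bases before the start, and that of Rpl13a began at base 3.

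Further letters were searched on both strands in the 250 bases before to 50 bases after the start, using the first entry of each gene. CCGGAAG, the core of ETS-factor sites, was present in 10 of 26 promoters with a peak (38.5%), in 3 of 16 without (18.8%) and in 11.9% of all 17492. GGGCGG, the GC box of Sp1-type factors, was present in 65.4%, 56.2% and 46.3%. CCAAT, the NF-Y box, was present in 23.1%, 43.8% and 39.0%. CACGTG, the E-box bound by Myc and its relatives, was present in 2 of 26 and 2 of 16, against 7.90% of all. Paralogs and retrogene-like loci made up 8 of the 16 promoters without a peak. In the 8 left without them, GGGCGG was present in 6 (75%), which turns its order against the genes with a peak. There CCAAT was present in 5 (62.5%), CCGGAAG in 2 and CACGTG in 2. With 100 bases before the start in place of 250, CCGGAAG was present in 34.6% with a peak and 6.25% of the 16 without. GGGCGG was present in 50% and 31.2%, and CACGTG in 3.85% and 0%. In the 8 without paralogs and retrogene-like loci, GGGCGG was then present in 50%, the same share as with a peak. There CCAAT was present in 50%, against 15.4% with a peak, and CCGGAAG and CACGTG in 0%.

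Rarer letters gave small counts. The palindromic ZBTB33 (Kaiso) element was present in 2 of 26 promoters with a peak, Rpl26 among them (26 bases before the start), in 0 of 16 without and in 0.715% of all. AAGATGGCG, a YY1 site, was present in 2 and 1 promoters, against 1.94% of all, and the palindromic NRF1 site in 1 and 0, against 1.32%. TATAA in the 40 bases before the start was present in 0 of 26 and 1 of 16, against 5.29%. GC content had medians of 57.5% with a peak, 56.5% without and 56.3% in all, and CpG counts per 300 bases medians of 20.5, 17 and 13. Without paralogs and retrogene-like loci the 8 promoters lacking a peak had medians of 58.7% GC and 23.5 CpG, above those of the genes with a peak, so neither order held. These are matches of letters, not bound sites, and the summits lay beyond the windows searched.

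Gene structure was compared with paralogs and retrogene-like loci left out of the genes without a peak. Gene length had a median of 3230 bp for genes with peaks at both times and 3175 bp for the 13 without a peak that are neither paralogs nor retrogene-like. A snoRNA gene, whose RNA guides chemical modification of ribosomal RNA, lay inside 11 of the 33 genes with peaks and 9 of those 13. Genes with peaks had a median of 2 annotated pseudogenes bearing their name, with a range of 0 to 23. Those 13 had a median of 1, from 0 at Rpl4 to 15 at Rpl21, so the ranges overlapped. Whether reads that map to several copies affected the calls was not tested.

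Neighbours share some of these peaks. Another protein-coding gene lay within 1 kb of the summit at Rpl7a (Med22), Rpl9 (Lias), Rpl12 (Lrsam1), Rpl15 (Nkiras1), Rpl18 (Sphk2), Rpl35a (Iqcg), Rpl36 (Lonp1), Rpl37 (Card6) and Rpl41 (Zc3h10). Leaving out peaks with such a neighbour left 26 genes at T12h and 25 at T48h. Rpl36 stayed in both counts, with a peak that had no such neighbour. Giving every peak to the nearest gene and no other kept all 34 and 33.

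Pseudogenes of the family were counted too. Of 202 annotated Rpl pseudogenes, 5 had a peak at T12h and 2 at T48h. Shares over all protein-coding genes were also low, at 4.25% and 1.69%. None of the pseudogene peaks was one of the large-subunit genes' own. The strongest, at Rpl15-ps6, held 31 tags at each time with folds of 19.2 and 14.7. The counts for the other T12h loci (Rpl10a-ps4, Rpl31-ps8, Rpl31-ps11 and Rpl36-ps9) were 17 to 20 tags.

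Related genes were counted by the same rule. Small-subunit ribosomal protein genes had a peak in 14 of 33 (42.4%, 25.5 to 60.8) at each time, the same 14 genes, with folds of 21.6 to 41.2 at T12h and 14.03 to 27.6 at T48h. Of 55 genes for assembly factors of the large subunit, 3 had one at T12h and 1 at T48h, near the background shares. These were Eif6, which keeps the subunits apart (26 tags, fold 6.87), Mrto4 (23 tags, 6.43) and Rrp1b (50 tags, 6.16) at T12h, and the helicase gene Ddx54 (22 tags, 6.52) at T48h. Mitochondrial large-subunit genes had one in 2 of 49 and 1 of 49, Mrpl48 at both times (folds 4.94 and 7.26) and Mrpl21 at T12h (6.80).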

How the data were processed

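Anti-HA ChIP-seq peaks were analysed from 1 library at each of 2 rescue times, and the input libraries served the authors as controls. Per the file headers, the authors called peaks with MACS 1.4.2 on each ChIP library against 1 control, with a p cutoff of 1.00e-05, a band width of 300 bp, an effective genome size of 2.70e+09 and at most 1 tag at a position. The bigger of the paired datasets was scaled down. The submitters' processing notes list deepTools, HOMER 4.9.1, SAMtools 1.5, Bowtie2 and the build mm10. Each peak came with a deposited tag count (whole tags, not normalised), a deposited score (−10 times log10 of the p-value), a fold (the authors' ratio of tags to local background), a percent false discovery rate, and its length and summit position in bp. Folds from separate MACS runs share no scale beyond their own background.

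Genes were assigned with Python 3.11.15, numpy 2.4.6, pandas 2.3.3 and scipy 1.17.1, and plots drawn with matplotlib 3.10.9. A summit is start + summit − 1, and a gene with several peaks is given by its highest-scoring one. Intervals are exact (Clopper-Pearson or Poisson) at 95% and cover counting error only. The assignment was tested on simulated peaks. No test between times was made, since each had 1 library. The genes of the group are named in the text, apart from a few items not reported here. Full peak values are given for the 8 highest and 4 lowest T12h scores, genes with a peak at 1 time, and paralogs. They are also given where the summit of the highest-scoring peak lay beyond 1 kb from both ends. The genes and lists were chosen with earlier results of these data known. Alternatives covered distance, thresholds, list length, neighbours, overlap and motif window.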

Additional observations from a re-analysis of the deposited data

How the results depend on the processing

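Counts of large-subunit genes with a peak stayed within 1.5 times the reported values under every alternative run. They were 34 and 33 at 500 bp, at 5 kb, for any base of the peak and for the nearest gene alone. They were 31 and 31 within 1 kb of a gene end (without Rpl17 and Rpl18, and Rpl19 at T12h), 33 and 33 among peaks with at least the median score of their list, and 32 and 32 at a fold of at least 10. At a false discovery rate of at most 5% they were 27 and 27, with 22 genes at both times. That limit removed strong peaks such as those of Rpl26 and Rpl29, whose deposited rates are high. Leaving out paralogs and retrogene-like loci, and peaks with a neighbouring gene, was chosen after the data were seen.

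As tags per kb of peak, scaled to filtered depth, the medians were 6.10 at T12h and 3.90 at T48h, a different unit from the fold, and T12h was higher in 33 of 33 genes. The median T12h peak centre lay 249 bp from the start, against 200 bp for the summit. With 100 bases before the start, promoters without a peak held CACGTG in 0%, CCGGAAG in 6.25% (from 18.8%) and GGGCGG in 31.2% (from 56.2%), and promoters with a peak held CACGTG in 3.85% (from 7.69%) and CCAAT in 15.4% (from 23.1%). The shorter window holds fewer bases. For the peak centre the cause was not tested. No paired analysis was possible because there was 1 library per group.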
